A study of Mus musculus with 24 samples.

Results

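The genes described here are 55 autosomal mouse genes for Slits, Robo receptors, netrins and their Dcc and Unc5 receptors, semaphorins of classes 3, 5 and 6, plexins, neuropilins, ephrins and Eph receptors. They were chosen by family, from 21887 protein-coding genes, with earlier results of these data known, and fall into 12 families. A further 11 genes of such families, Robo4, Ntn3 and Ntn5 among them, are outside the 55. Peaks of chromatin immunoprecipitation sequencing (ChIP-seq) were read over each gene body with 10 kb on each side, called the gene window. All values below are the length of a gene window covered by peaks, in kb, or that length as a share of the window. The study asked how loss of KDM6A affects chromatin in small cell lung cancer. It used 4 early-passage cell lines grown from tumours of the RPP mouse model, which is built on loss of the tumour suppressors Rb1, Trp53 and Rbl2, a loss that all 4 lines share. The control lines, 159-1 and 1014, are labelled sgControl RPP and Kdm6a wild type, and the mutant lines, 236L and 236R, are labelled sgKdm6a RPP. H3K4me1, H3K4me2 and H3K27me3, the 3 histone marks, were mapped in every line, and KDM6A in 159-1 and 1014. KDM6A occupancy in the mutant lines was not analysed here. All cultures were harvested 24 h after being plated in ultra-low attachment plates. Each line is 1 culture, and whether the 2 mutant lines derive from different mice is not stated in the labels.

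Axon guidance genes encode secreted or membrane-bound cues and the receptors that read them, and they steer growing nerve fibres by attraction or repulsion. Slits signal through Robo receptors, netrins through Dcc and the Unc5 proteins, semaphorins through plexins with or without neuropilins, and ephrins through Eph receptor kinases. The same families guide cell migration, vessel growth and epithelial sorting outside the nervous system, and several are altered in lung cancer. KDM6A (UTX) is a histone demethylase that acts on H3K27, and it also sits in the MLL3 and MLL4 complexes that methylate H3K4. H3K4me1 marks enhancers, H3K4me2 marks promoters and active enhancers, and H3K27me3 is laid down by Polycomb repressive complex 2 over silent genes.

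The 14 peak lists came from 1 library each, with 4 lists for each histone mark and 2 for KDM6A. Without read counts the depth is unknown, so how far list length follows depth or enrichment cannot be told from these files. The deposited names of the 2 control H3K4me2 lists go against the sample labels, and values are given by label, which leaves the counts of higher and lower genes the same. Values for a single control line and overlaps of H3K4me2 with another target in the same line rest on the labels. From here on, control values are in the order 159-1, 1014 and mutant values in the order 236L, 236R, and 4 values together follow the order 159-1, 1014, 236L, 236R. H3K27me3 lists differed most in length, at 45.4, 110, 13.8 and 30.5 Mb. H3K4me1 lists covered 109 to 135 Mb, H3K4me2 lists 73.7 to 87.6 Mb and KDM6A lists 34.6 and 27.02 Mb. Line 236L stood apart from the other 3 lines in all 3 histone marks. Over 10 macrophage marker genes H3K4me1 covered 177 kb in 236L against 27.1 to 35.1 kb in the other lines, and H3K4me2 covered 109 kb against 27.4 to 30.9 kb. At least 1 kb of H3K4me1 lay at all 10 markers in 236L and at 7, 8 and 7 in 159-1, 1014 and 236R. For H3K4me2 it was 10, against 7, 7 and 6. H3K27me3 over the same genes was 1.22 kb in 236L and 25.3 to 63.7 kb in the other lines. Adgre1, a defining macrophage marker, had no H3K4me1 or H3K4me2 peak in the other 3 lines. Ptprc had neither in the control lines, and the remaining markers had H3K4me1 peaks in all 4 lines. Over 11 neuroendocrine marker genes H3K4me1 covered 26.5 kb in 236L against 69.7 to 85.7 kb elsewhere, H3K4me2 70.1 kb against 102 to 114 kb, and H3K27me3 33.4 kb against 0 to 14.6 kb. Small cell lung cancer is a neuroendocrine tumour, but the labels state no neuroendocrine state for any line. At least 1 kb of H3K4me2 still lay at 10 of the 11 neuroendocrine markers in 236L, against 11 in each other line. Whether the 236L culture is the tumour line its label names was not tested. Values of 236L below are those of the library so labelled. H3K4me1 over 7 fibroblast markers covered 12.2 to 26.4 kb, and over 9 endothelial markers 37.7 to 92.9 kb, lowest in 236L for both. Of the fibroblast markers, Lum had no H3K4me1 peak in any line, and Dcn had peaks in every line but 236L. Col3a1 and Postn had H3K4me1 peaks in 236L alone. The median fibroblast marker share under H3K4me1 was 0, 0, 1.97 and 1.24%. The part of these differences in the results below was not tested, and the counts over all 55 genes are therefore also given without 236L.

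Promoter windows of 300 bases, from 250 bases before to 50 after the start, were found for 45 of the 55 genes in a RefSeq table on GRCm38.p6, the mm10 assembly. The 4 printed next are those named genes whose promoter window was overlapped by a histone mark in both lines of 1 genotype and in neither line of the other. The Slit3 window is chr11:35121206-35121505 (plus strand), the Ntn4 window chr10:93640799-93641098 (plus), the Unc5a window chr13:54949161-54949460 (plus) and the Epha1 window chr6:42373219-42373518 (minus). Each is written 5′ to 3′ on the gene's strand. Capitals mark GGGCGG, the GC box that SP1 binds, or its reverse complement CCGCCC, and the E-box CAGATG or its reverse complement CATCTG. Neighbouring GC boxes can overlap and then form 1 longer run of capitals.
Slit3: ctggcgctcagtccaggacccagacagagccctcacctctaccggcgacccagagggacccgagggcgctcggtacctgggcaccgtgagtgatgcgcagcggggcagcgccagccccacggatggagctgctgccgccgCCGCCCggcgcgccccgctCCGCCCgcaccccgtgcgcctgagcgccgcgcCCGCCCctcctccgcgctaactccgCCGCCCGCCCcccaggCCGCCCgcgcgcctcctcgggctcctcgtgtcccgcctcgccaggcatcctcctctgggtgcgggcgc
Ntn4: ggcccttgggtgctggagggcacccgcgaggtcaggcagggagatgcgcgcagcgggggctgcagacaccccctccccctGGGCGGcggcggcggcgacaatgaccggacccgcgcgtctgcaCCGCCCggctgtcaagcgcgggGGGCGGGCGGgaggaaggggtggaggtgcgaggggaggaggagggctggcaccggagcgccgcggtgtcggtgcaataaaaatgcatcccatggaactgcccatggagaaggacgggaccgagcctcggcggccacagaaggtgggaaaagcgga
Unc5a: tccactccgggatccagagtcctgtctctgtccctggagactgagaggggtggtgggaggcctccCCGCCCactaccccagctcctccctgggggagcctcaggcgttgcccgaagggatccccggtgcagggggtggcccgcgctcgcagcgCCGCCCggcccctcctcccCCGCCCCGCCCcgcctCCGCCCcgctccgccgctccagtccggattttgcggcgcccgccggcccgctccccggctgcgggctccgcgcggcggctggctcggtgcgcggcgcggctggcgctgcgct
Epha1: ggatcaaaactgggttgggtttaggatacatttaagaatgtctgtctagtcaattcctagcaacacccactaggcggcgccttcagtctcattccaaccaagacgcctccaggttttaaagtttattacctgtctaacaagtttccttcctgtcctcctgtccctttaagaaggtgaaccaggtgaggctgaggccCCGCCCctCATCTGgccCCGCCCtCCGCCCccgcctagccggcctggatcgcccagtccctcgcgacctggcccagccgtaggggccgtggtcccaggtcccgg
H3K4me2 overlapped the Slit3 window in both mutant lines and in neither control line, while H3K27me3 overlapped it in all 4 lines. H3K4me1 overlapped the Ntn4, Unc5a and Epha1 windows in both mutant lines and in neither control line, and H3K4me2 overlapped these 3 windows in all 4 lines. H3K27me3 overlapped the Ntn4 and Unc5a windows in 236L alone. Over all 17492 promoter windows H3K4me1 overlapped 17.2 and 17.1% in the control lines and 28.5 and 24.6% in the mutant lines. Among the 45 guidance gene windows it overlapped 44.4 and 35.6% in the control lines and 71.1 and 48.9% in the mutant lines.
The promoters were rich in CpG, with a median of 23 CpG dinucleotides and 66.7% G and C, against 13 and 56.3% over all promoters. GGGCGG was in 35 of 45 (77.8%) against 46.3% of all promoters, and CAGATG in 4 (8.89%) against 14.9%, each searched on both strands.

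At a gap of at least 2 kb from the control lines, the mutant lines had less H3K4me1, less H3K4me2 or less H3K27me3 over a set of guidance genes. They had more by such a gap over very few. A gene was counted as lower or higher where every mutant line lay at least 2 kb below or above every control line. H3K4me1 was lower at 13 of 55 genes (23.6%), against 7.45% of all genes, and higher at 1, Epha1, against 5.3% of all genes. H3K4me2 was lower at 12 (21.8%), against 6.37%, and higher at none, against 1.36%. H3K27me3 was lower at 7 (12.7%), against 6.43%, and higher at 2, Sema6b and Epha8, against 0.425%. The remaining genes lay within 2 kb or had overlapping groups. An exact two-sided permutation test of 2 lines against 2 cannot give a p below 0.33, so no gene can pass 0.05.

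Guidance genes are long, with a median window of 145.9 kb against 37.2 kb over all genes, and long windows separate by 2 kb more often. Among genes with windows of at least 100 kb, a limit set after the data were seen, the 31 guidance genes of that length were near the background for the H3K4 marks. H3K4me1 was lower at 6 of them (19.4%), against 19.2% of such genes, and higher at none, against 4.52%. H3K4me2 was lower at 7 (22.6%), against 19.8%, and higher at none, against 2.39%. H3K27me3 was lower at 7 (22.6%), against 11%, and higher at none, against 0.573%. Among the 24 guidance genes with shorter windows H3K4me1 was lower at 7 (29.2%), against 5.48% of the 18748 genes under 100 kb, and higher at 1, against 5.43%. H3K4me2 was lower at 5 of them (20.8%), against 4.12%, and higher at none, against 1.19%. H3K27me3 was lower at none, against 5.67%, and higher at 2 (8.33%), against 0.4%. The share of genes with less H3K4me1 or H3K4me2 was thus near the background for long windows and above it for shorter ones, while all 7 genes with less H3K27me3 had long windows. Length was not matched within either class.

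Without 236L, line 236R alone was set against the control lines. By construction no gene lost its place this way. H3K4me1 was then lower at 19 genes (34.5%; 12.6% of all genes) and higher at 9 (16.4%; 10.1%). H3K4me2 was lower at 18 (32.7%; 9.65%) and higher at 4 (7.27%; 2.66%), and H3K27me3 lower at 8 (14.5%; 6.99%) and higher at 2 (3.64%; 2.12%). At windows of at least 100 kb, 8 of 31 guidance genes (25.8%) had less H3K4me1 in 236R, against 29% of such genes, 10 (32.3%) had less H3K4me2, against 27.1%, and 8 (25.8%) less H3K27me3, against 11.7%. The median change in covered share, mutant mean minus control mean, was -0.70 percentage points for H3K4me1 over the 55 genes and 0.37 over all genes, and it was -0.04 for the guidance genes and 0 for all genes without 236L. For H3K4me2 it was -0.73 points and 0 over all genes, and -0.62 and -0.01 without 236L. For H3K27me3 it was 0.01 points and 0 over all genes, and 0 for both without 236L. The mutant mean H3K27me3 share was higher at 28 guidance genes and lower at 20, while over all genes it was higher at 3495 and lower at 6139. The mean H3K27me3 change was -1.21 points over the guidance genes and -2.62 over all genes.

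Line 236L had H3K27me3 where the other lines had none at a further set of genes. At 15 of the 55 (27.3%) it had at least 1 kb while 159-1, 1014 and 236R had no peak, against 4% of all genes. These include the netrin receptors Unc5a, Unc5b and Dcc, the semaphorins Sema3b, Sema3f and Sema6c, and the receptors Epha5, Ephb3 and Ephb6. At Ntn4, Dcc, Efna2, Efna5, Efnb2, Ephb3 and Ephb6 all of this H3K27me3 lay in H3K4me2 peaks of 236L, and at Sema3b none did. Over the genome 38.9% of H3K27me3 cover in 236L lay in H3K4me2 peaks, against 4.61 to 11.5% in the other lines. The counts in this paragraph were not matched for window length. At least 1 kb of H3K27me3 lay at 35 guidance genes in 236L, against 17, 23 and 18 in 159-1, 1014 and 236R. Over all 21887 genes the count was 3271 in 236L, against 3556, 5565 and 3654 in those lines. The 7 genes without H3K27me3 in any line (12.7%, against 56% of all genes) were Robo2, Sema3c, Sema3e, Plxna1, Plxna2, Plxnb1 and Plxnd1.

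**Figure D1:**
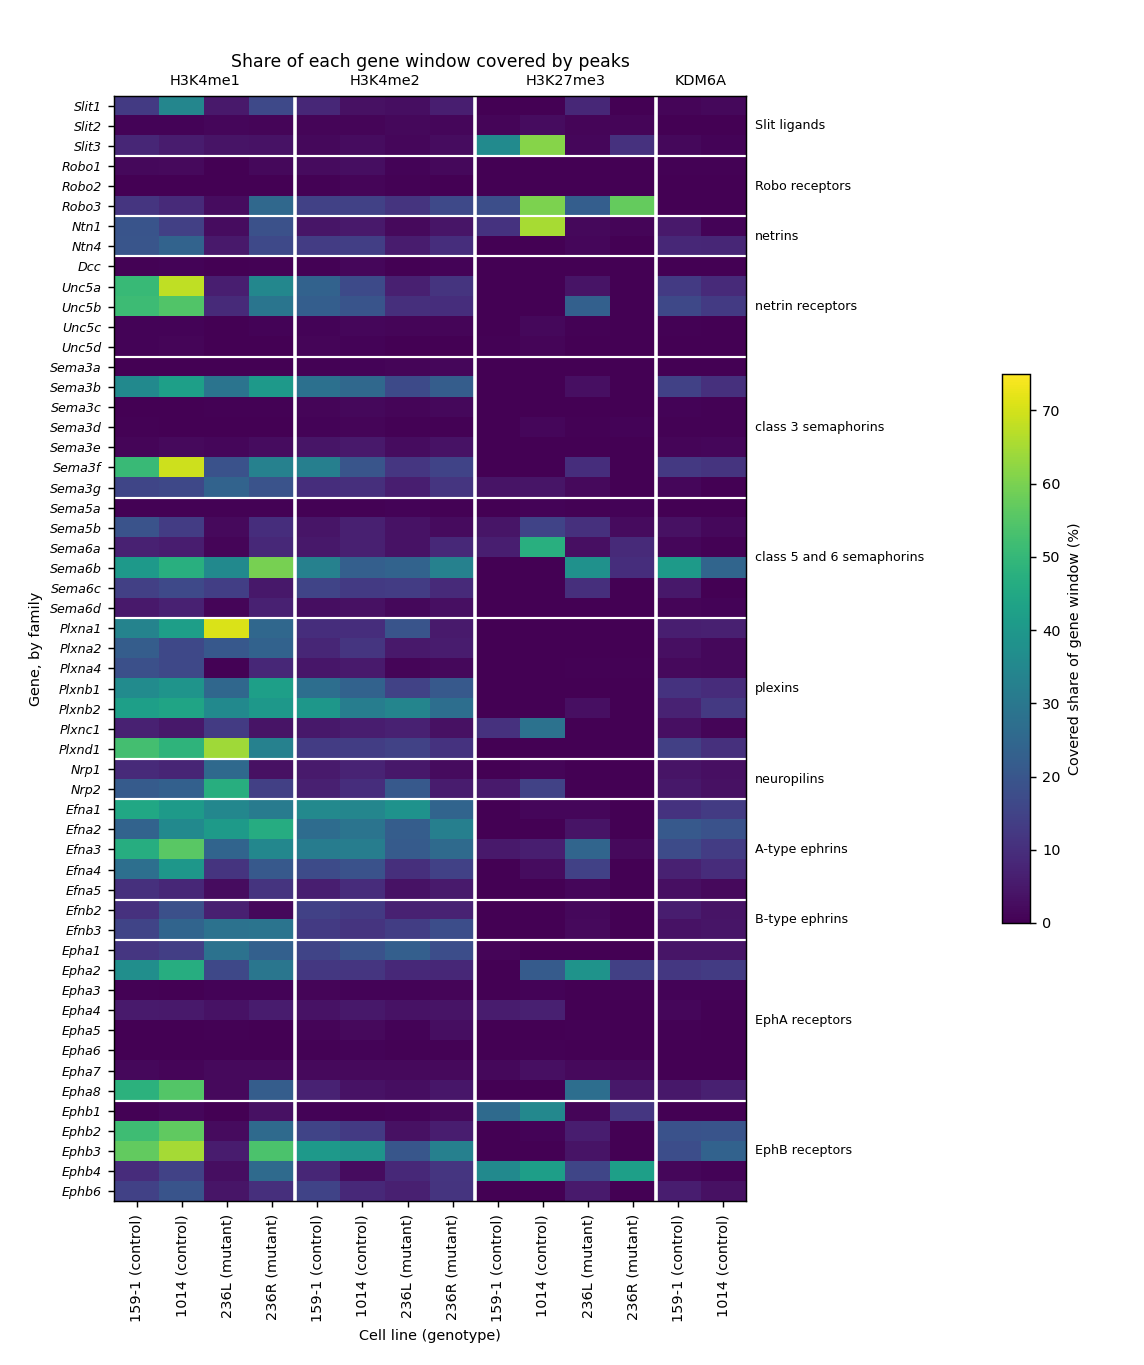
Share of each gene window (rows, by family, in %) covered by peaks in each of the 14 lists (columns, cell line and genotype under each target). Bright cells for H3K4me1 include the control lines at Unc5a, Unc5b, Sema3f, Epha8, Ephb2 and Ephb3. They also include Plxna1 and Plxnd1, most in 236L, and A-type ephrins other than Efna5. For H3K27me3 they include Slit3, Robo3, Ntn1, Ephb1 and Ephb4.

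**Figure D2:**
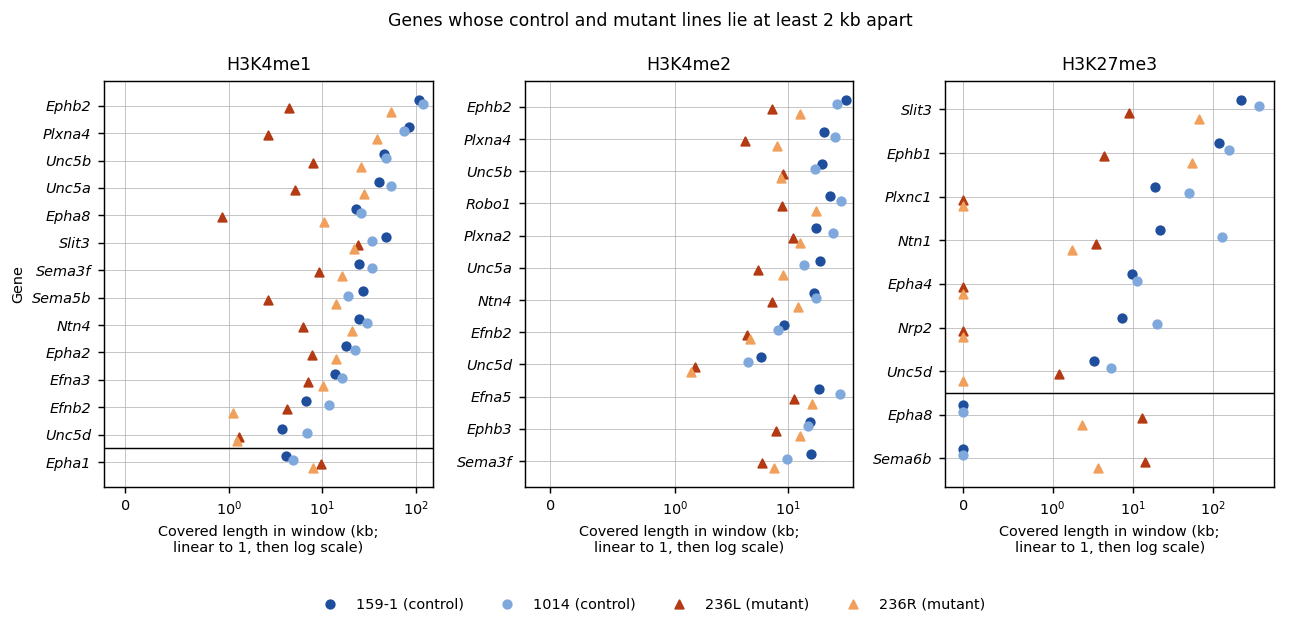
Covered length (kb; linear to 1, log scale above) in each cell line for the genes whose control lines (circles) and mutant lines (triangles) lie at least 2 kb apart, for each histone mark; genes under the horizontal line are higher in the mutant lines. In the H3K4me1 and H3K4me2 panels the 236R triangle mostly lies between 236L and the control lines.

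The families differed in how much of their windows was covered. A-type ephrins had the largest median H3K4me2 share, 26.6 and 28.9% in the control lines and 21.6 and 24.1% in the mutant lines. Netrin receptors had the smallest in 159-1, 0.961%, and Slit, Robo and EphA genes had medians of at most 3.24% in every line. All genes had a median of 6.08 to 6.67%. Plexins had the largest median H3K4me1 share of the families in 159-1, 33.4%, and A-type ephrins in 1014, 39.8%, where all genes had 3.77 and 4.11%. H3K27me3 had a median of 0 in at least 1 control line for 7 of the 12 families. The exceptions were Slits (1.13 and 2.58%), Robos (0.135 and 0.0719%), netrins (5.45 and 32.6%), neuropilins (2.68 and 7.88%) and EphA receptors (0.226 and 0.607%). The order of families followed window length in part: the median window was 29.2 kb for A-type ephrins and 1040 kb for Robos. Members of a family are not replicates, so these medians carry no test.

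**Figure D3:**
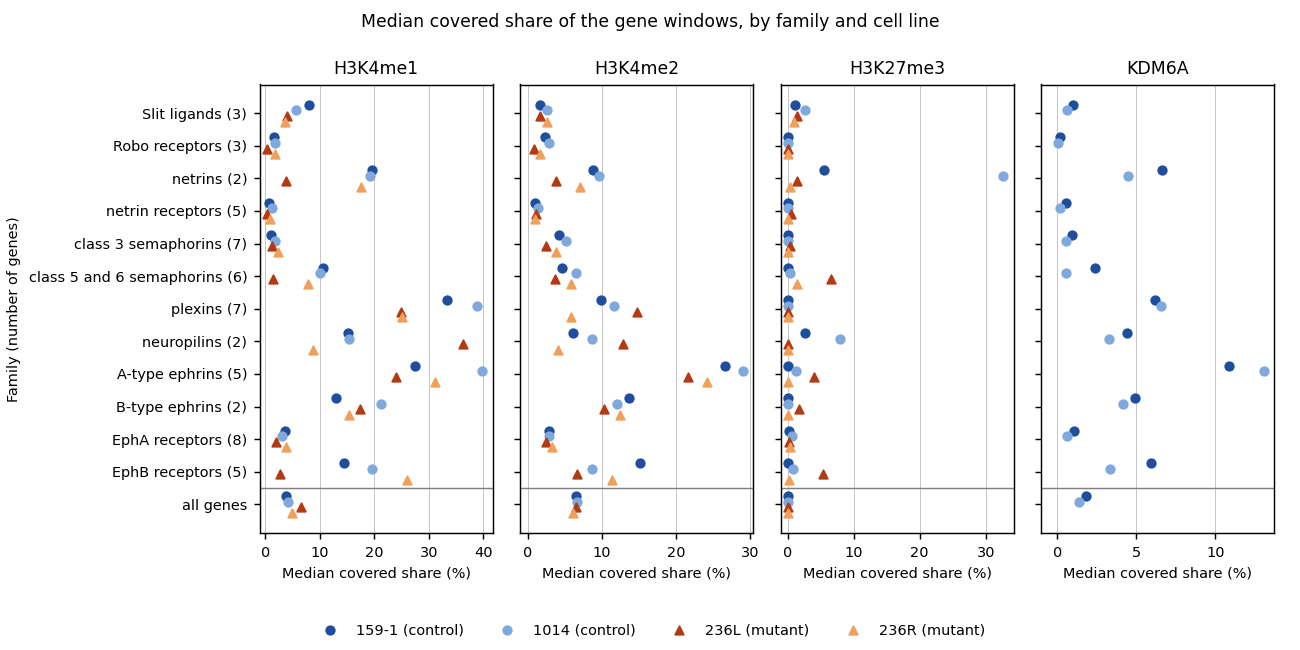
Median covered share (%) of the gene windows of each family (number of genes in brackets) and of all genes, for each target; circles are control lines and triangles mutant lines. A-type ephrins lie farthest right for H3K4me2 and KDM6A, and netrins in 1014 for H3K27me3.

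Slits are secreted repellents. Slit3 had the most H3K27me3 of the 21887 genes in 1014 and rank 2 in 159-1. The gene lies on chromosome 11 (35121456 to 35708507, mm10), and no other gene body lies in its window. H3K27me3 covered 218, 372, 8.81 and 65.8 kb. The mutant lines lay 153 kb below the lower control line with or without 236L, but 236R still had rank 13 of all genes by length. With every H3K27me3 list cut to the same covered length the groups overlapped at Slit3. The H3K27me3 domain ended near 460 kb from the gene start, a limit set after the map was seen. Up to there the control lines had 218 and 351 kb of it, and beyond it 0 and 20.6 kb. H3K4me1 lay mostly past that limit in the control lines, with 38.4 and 33.1 kb there. In 236L only 0.629 kb of H3K4me1 lay past it and 23.6 kb before it. Line 236R had 12.7 kb past it and 9.47 kb before it. Over the whole window H3K4me1 was 48.5, 34.2, 24.2 and 22.1 kb in the 4 lines, so Slit3 counted as lower by 9.97 kb, although within 2.5 kb of the gene ends the mutant lines were higher by 0.779 kb. Slit2 carried short blocks of both marks. H3K27me3 covered 3.90, 8.93, 3.67 and 3.53 kb and H3K4me2 3.62, 3.10, 5.45 and 4.27 kb in the same order. Slit1 had no H3K27me3 except 14.1 kb in 236L, where its H3K4me1 was 8.86 kb against 21.6 to 58.2 kb in the other lines.

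Robo1, a Slit receptor with a gene of over 1 Mb, had 23.6, 29.3, 8.88 and 17.5 kb of H3K4me2. The groups were 6.03 kb apart, and 0.44 kb apart in lists of equal length. Robo2 had H3K4me2 over 0.263 to 0.906% of its window, the lowest of the Robos, and no H3K27me3 in any line. Robo3, which lets commissural axons cross the midline, had H3K27me3 over 18.03 and 60.3% of its window in the control lines and 22.3 and 57.3% in the mutant lines. Each genotype thus held 1 line with a high and 1 with a low value, and the groups overlapped. H3K4me2 covered 14.4% of the Robo3 window in both control lines.

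**Figure D4:**
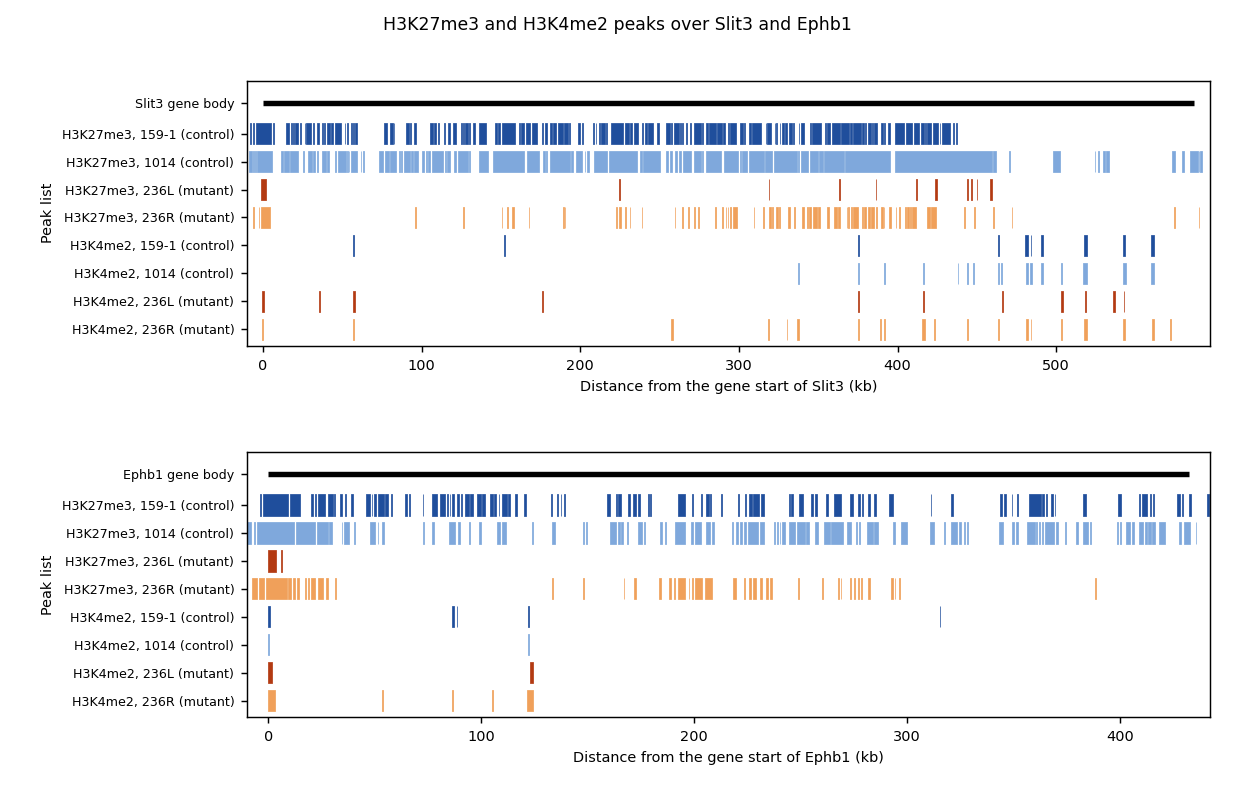
H3K27me3 and H3K4me2 peaks over Slit3 and Ephb1, by distance from the gene start (kb), with the gene body in black and 1 row for each cell line. Control rows of H3K27me3 hold dense peaks over Slit3 up to about 460 kb, and the 236L rows hold only short peaks.

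Netrin-1 is the classical secreted attractant and repellent. At Ntn1 (chromosome 11, 68209364 to 68386826) H3K27me3 covered 21.5, 129, 3.45 and 1.74 kb. Both mutant lines lay 18.1 kb below the lower control line, and the 2 control lines lay farther apart than that. In lists of equal length the gap was 2.77 kb. Ntn1 H3K4me1 covered 38.4, 28.2, 5.21 and 36.8 kb, so only 236L was low. Ntn4, a laminin-related netrin, had no H3K27me3 in 159-1, 1014 and 236R and 1.52 kb in 236L. Its H3K4me2 covered 16.8, 17.5, 7.21 and 12.2 kb, so each mutant line lay below each control line.

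Unc5 proteins are repellent netrin receptors. Unc5b (chromosome 10, 60762594 to 60831581) and Unc5a (chromosome 13, 54945151 to 55006018) had the highest H3K4me2 shares of the netrin receptors and lower H3K4me1 and H3K4me2 in both mutant lines. At Unc5b H3K4me1 covered 45.7, 48.6, 8.03 and 26.0 kb. The gap between groups was 19.7 kb, with or without 236L and also in lists of equal length. H3K4me2 at Unc5b covered 20.0, 17.4, 9.06 and 8.65 kb. H3K27me3 was absent from Unc5b in 159-1, 1014 and 236R and covered 20.6 kb in 236L. At Unc5a H3K4me1 covered 40.8, 54.8, 5.08 and 28.0 kb and H3K4me2 19.1, 13.7, 5.39 and 9.04 kb. The H3K4me2 gap at Unc5a was 4.67 kb, and 0.81 kb in lists of equal length. Unc5d was the one gene lower in all 3 histone marks, at small lengths: H3K27me3 covered 3.25, 5.39, 1.19 and 0 kb and H3K4me2 5.70, 4.38, 1.48 and 1.39 kb. Unc5c had 0.516, 6.63, 1.78 and 0 kb of H3K27me3, with overlapping groups. Dcc, the attractant netrin receptor, had 0.265 to 1.42% of its window under H3K4me2 and no H3K27me3 outside 236L.

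Class 3 semaphorins are secreted. Sema3b and Sema3f, which lie close together on chromosome 9 and whose human counterparts are in a region often deleted in lung cancer, had the highest H3K4me2 shares of the class in 159-1, 27.7 and 32.3%. Sema3f was the only member of the class in the lower group for either H3K4 mark, with 24.9, 33.9, 9.18 and 16.2 kb of H3K4me1 and 15.8, 9.73, 5.87 and 7.43 kb of H3K4me2. Sema3b had 8.74, 7.97, 5.27 and 6.99 kb of H3K4me2, a gap of 0.98 kb. Sema3a had the lowest H3K4me2 share of the class in the control lines, 0.508 and 0.591%, and covered lengths of 2.53, 2.95, 4.47 and 6.86 kb, a gap of 1.53 kb that is under the 2 kb minimum. Sema3g had 1.25, 1.41, 0.589 and 0 kb of H3K27me3. The remaining members, Sema3c, Sema3d and Sema3e, had 1.06 to 13.0 kb of H3K4me2 and at most 3.19 kb of H3K27me3 in any line.

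Class 5 and 6 semaphorins are membrane proteins. Sema6b (chromosome 17, 56123085 to 56140343) had no H3K27me3 in either control line but 14.1 and 3.66 kb in the mutant lines. With only peaks of −log10 q of at least 3, or with lists of equal length, there was no gap between the groups at Sema6b. H3K4me2 covered 32.9, 22.8, 23.9 and 32.9% of its window. Sema6a had 9.11, 68.9, 4.59 and 13.2 kb of H3K27me3, with overlapping groups. Sema5a had a like H3K4me2 length in all lines, 2.37, 2.28, 2.82 and 2.32 kb. Sema5b, which had 27.6, 19.0, 2.64 and 14.2 kb of H3K4me1, was the only member of this group counted as lower for that mark. Sema6d, which guides cardiac and axonal growth, had 30.6, 41.4, 5.92 and 41.2 kb of H3K4me1, low in 236L alone.

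Plexins are the semaphorin receptors. Plxna4 (chromosome 6, 32144543 to 32588192), a receptor for class 3 and 6 semaphorins, had 85.2, 75.2, 2.61 and 38.7 kb of H3K4me1. H3K4me2 at Plxna4 covered 20.8, 25.7, 4.14 and 7.98 kb. The gaps of 36.5 and 12.8 kb were the same without 236L and were 15.2 and 6.13 kb in lists of equal length. Plxna2 had 17.7, 25.1, 11.0 and 12.7 kb of H3K4me2, while its H3K4me1 groups overlapped (47.8, 35.6, 44.9 and 51.0 kb). Plxnc1, the receptor for the membrane-anchored Sema7a, had H3K27me3 in the control lines only, 18.9 and 49.3 kb, and none in 236L or 236R. In lists of equal length the Plxnc1 gap was 4.39 kb. Plxnb2 had the largest H3K4me2 share of the plexins, 39.6, 31.7, 34.2 and 27.2%.

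Neuropilins are co-receptors for class 3 semaphorins and for VEGF. Nrp2 (chromosome 1, 62703317 to 62818692) had 7.26 and 20.0 kb of H3K27me3 in the control lines and none in either mutant line. At −log10 q of at least 3 its H3K27me3 groups were not apart. Its H3K4me1 covered 29.0, 31.2, 63.8 and 19.4 kb and its H3K4me2 8.85, 13.3, 28.2 and 7.80 kb. Line 236L was the highest and 236R the lowest of the 4 lines for both H3K4 marks at Nrp2. Nrp1 had the same order for H3K4me1, with 15.0, 12.9, 42.7 and 5.45 kb. Plxna1 and Plxnd1, whose H3K4me1 was also highest in 236L and lowest in 236R, had 47.0 and 16.6 kb and 39.0 and 20.0 kb in these lines. Both were named after their values were seen. Plxnc1 had the same order, with 22.9 and 6.77 kb. In 236L the H3K4me1 of Nrp1, Nrp2, Plxna1, Plxnc1 and Plxnd1 lay above that of both control lines. This is the library in which the macrophage markers had 177 kb of H3K4me1, and the part of that in these values was not tested.

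A-type ephrins are anchored to the membrane by a lipid tail. Efna1, Efna3 and Efna4 lie in a row on chromosome 3, and the windows of Efna3 and Efna4 share 9.55 kb. Efna1 had H3K4me2 over 35.4, 34.5, 38.3 and 24.1% of its window. Efna3 had 13.6, 16.2, 6.98 and 10.1 kb of H3K4me1 and was counted as lower. Its H3K27me3 covered 1.46, 1.83, 7.08 and 0.558 kb, highest in 236L. Efna5 had the lowest H3K4me2 share of the family, and its H3K4me2 covered 18.7, 28.8, 11.4 and 16.2 kb. Of the B-type ephrins, which span the membrane, Efnb2 (the arterial partner of Ephb4) had 9.27, 8.14, 4.36 and 4.59 kb of H3K4me2 and 6.75, 11.8, 4.24 and 1.12 kb of H3K4me1, both lower in both mutant lines. Efnb3 had 3.44, 3.06, 3.67 and 4.80 kb of H3K4me2, a gap of 0.24 kb in the other direction.

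EphA receptors bind mainly A-type ephrins. Epha1 was the single guidance gene whose H3K4me1 lay at least 2 kb higher in both mutant lines: 4.13, 4.85, 9.83 and 8.01 kb. Its groups were 3.16 kb apart, and 4.19 kb apart in lists of equal length. Epha8 (chromosome 4, 136929419 to 136956859) had both lower H3K4me1 and higher H3K27me3 in the mutant lines, with 22.8, 26.1, 0.935 and 10.4 kb of H3K4me1 and 0, 0, 12.9 and 2.29 kb of H3K27me3. At −log10 q of at least 3, and in lists of equal length, Epha8 had no H3K27me3 gap. Epha4 had 9.63 and 11.3 kb of H3K27me3 in the control lines and none in either mutant line, and in lists of equal length the groups overlapped. Epha2 had 0, 10.4, 18.6 and 6.85 kb of H3K27me3, so the groups overlapped, while its H3K4me1 was lower by 3.59 kb. Epha6 had H3K4me2 over 0.390 to 0.614% of its window in the 4 lines. No EphA gene was counted as higher or lower for H3K4me2.

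EphB receptors bind B-type ephrins. Ephb2 (chromosome 4, 136647536 to 136836326) lies near Epha8, which starts at 136929419, and each was counted as a gene of its own. Ephb2 had the largest H3K4me1 and H3K4me2 separations of the 55 genes. H3K4me1 covered 108, 119, 4.43 and 54.4 kb, a gap of 53.4 kb with or without 236L. H3K4me2 covered 32.2, 26.8, 7.17 and 12.7 kb, a gap of 14.2 kb. In lists of equal length the gaps were 50.4 and 10.6 kb. The difference lay inside the gene. Within 2.5 kb of the gene ends the H3K4me2 of the mutant lines lay 0.038 kb above that of the control lines. Of the 99.1 kb of H3K4me1 shared by both control lines, 2.67% was covered in 236L and 54.2% in 236R. H3K27me3 at Ephb2 covered 0, 1.62, 12.5 and 0.573 kb.

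**Figure D5:**
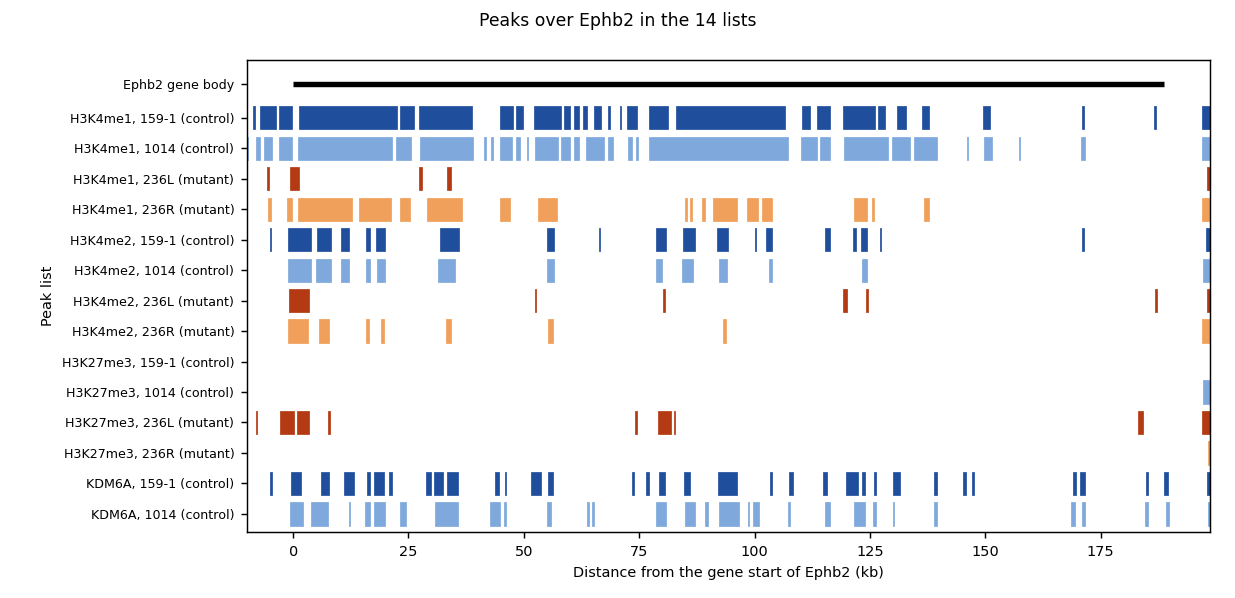
Peaks of the 14 lists over Ephb2, by distance from the gene start (kb), with the gene body in black and 1 row for each target and cell line. The control rows of H3K4me1 are filled in long stretches and the 236L row is nearly empty, the KDM6A rows hold many short peaks along the gene, and all 4 lines have an H3K4me2 peak at the gene start.

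Ephb1 (chromosome 9, 101922128 to 102354693) was the counterpart to Slit3 among the receptors. H3K27me3 covered 117, 158, 4.35 and 54.1 kb, and no KDM6A peak lay in its window in either control line. The gap was 62.9 kb with or without 236L, and the groups overlapped in lists of equal length. Within 35 kb of the gene start, a limit set after the map was seen, 236R had 25.0 kb against 25.9 and 36.0 kb in the control lines, and beyond it 29.1 kb against 91.2 and 122 kb. The difference between 236R and the control lines thus lay mainly in the body of the gene. Line 236L kept 4.35 kb near the start and had nothing beyond. Ephb3 had the highest H3K4me2 share of the EphB genes, 40.2, 38.7, 20.2 and 32.6%. Ephb4, the venous partner of Efnb2, had the highest H3K27me3 share of its family, 35.5, 42.0, 15.6 and 42.3%, with overlapping groups.

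KDM6A itself covered at least 1 kb in both control lines at 37 of 55 guidance genes (67.3%), against 40.9% of all genes. This count was not matched for window length. Over the summed windows KDM6A covered 1.92 and 1.51% in 159-1 and 1014, against 2.62 and 2.16% over all genes. The median share of a window under KDM6A was 3.10 and 1.50%, against 1.81 and 1.39%. Ephb2 had by far the most, 39.5 kb in 34 blocks in 159-1 and 40.9 kb in 29 blocks in 1014, ranks 7 and 4 of all 21887 genes. Unc5b followed with 14.5 and 11.4 kb, Sema6b with 15.3 and 9.08 kb, Ntn4 with 10.4 and 10.2 kb and Unc5a with 10.4 and 7.27 kb. Of the 5 genes with the most KDM6A, Ephb2, Unc5b, Ntn4 and Unc5a were lower for both H3K4me1 and H3K4me2, and Sema6b for neither. Outside these 5, Unc5d, Sema3f, Plxna4 and Efnb2 were lower for both marks too. Taken singly, H3K4me1 was lower at 7.45% and H3K4me2 at 6.37% of all genes. The share lower for both was not counted, either over all genes or over genes with as much KDM6A. Genes were not matched for H3K4me1 or H3K4me2 cover, and whether KDM6A cover goes with these differences was not tested. No KDM6A peak lay at Slit2, Robo3, Sema5a, Epha7 or Ephb1 in either control line. Summed over the 55 windows, 72.2 and 73.3% of KDM6A cover in 159-1 and 1014 lay in H3K4me2 of the same line, against 81.9 and 86.8% over all genes. Without Ephb2 the shares were 76.0 and 79.9%, and with the 2 control H3K4me2 lists exchanged, as their deposited names have it, they were 70.9 and 76.5%. For H3K4me1 they were 62.7 and 65.4%, against 43.6 and 41.6% over all genes, and for H3K27me3 3.06 and 4.55%, against 2.48 and 3.34%.

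Bases with H3K4me2 in both control lines amounted to 413 kb over the guidance genes, of which 119 kb lay in KDM6A peaks of both lines. In 236R 82.2% of the KDM6A-bound bases kept H3K4me2, against 66.5% of the others, and in 236L 64.0% against 49.1%. Over all genes the values were 92.1 and 77.3% in 236R and 83.4 and 68.4% in 236L. H3K4me1 followed the same order, with 89.6 against 60.6% in 236R and 34.0 against 20.6% in 236L. Over all genes the H3K4me1 values were 90.8 and 63.1% in 236R and 43.1 and 34.1% in 236L. Ephb2 alone held 20.0 of the 81.2 kb of KDM6A-bound H3K4me1 bases. Without Ephb2 the H3K4me1 values of the guidance genes were 90.8 against 62.5% in 236R and 42.7 against 23.1% in 236L. These are descriptions with no test, and peak strength was not matched between bound and other bases.

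H3K4me2 covered at least 1 kb of the window of all 55 genes in both control lines and in both mutant lines, against 72% of all genes in the control lines and 72% in the mutant lines. H3K4me1 did so at 50 genes in the control lines (55.6% of all genes) and at 45 in the mutant lines (58.1%). H3K27me3 did so at 16 in the control lines (15.2% of all genes) and at 15 in the mutant lines (7.38%). Guidance genes have longer windows, and no count of at least 1 kb in this paragraph was matched for length. Over the summed windows H3K4me2 covered 3.63 and 3.91% in the control lines, against 6.76 and 6.74% over all genes. Its median share of a window was 7.26 and 7.42%, against 6.53 and 6.67%. Counting only bases that hold both H3K4me2 and H3K27me3, at least 1 kb of them lay at 11 guidance genes (20%) in both control lines, against 4.38% of all genes. With the 2 control H3K4me2 lists exchanged there were 12, the same 11 among them. The 11 were Slit2, Slit3, Robo3, Ntn1, Sema6a, Plxnc1, Nrp2, Efna3, Epha4, Epha6 and Epha7. In the mutant lines there were also 11, against 4% of all genes, and in 236R alone 12, against 6.02%. Slit2, Slit3, Robo3, Sema6a, Epha6 and Epha7 were in both groups of 11. Ntn1, Plxnc1, Nrp2, Efna3 and Epha4 were in the control group only, and Sema5a, Sema6b, Epha2, Ephb1 and Ephb4 in the mutant group only. In 236L 38.9% of all H3K27me3 cover in the genome lay in H3K4me2 peaks, against 4.61 to 11.5% in the other lines, so the mutant group rests on lists of unlike makeup.

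H3K4me2 with H3K27me3 was seen in both control lines at 6 of 45 promoters (13.3%), against 3.47% of all promoters: Slit2, Robo3, Epha6, Epha7, Ephb1 and Ephb4. Ephb1 and Ephb4 were not among the 11 genes of the whole-window count in the control lines. All 6 kept this state in both mutant lines, where Slit3, Sema3d and Epha2 joined them (9 of 45, 20%, against 2.37%). H3K4me2 without H3K27me3 was seen at 28 promoters in the control lines (62.2%, against 55.2%) and at 24 in the mutant lines (53.3%, against 54%). Slit3 was the single promoter with H3K27me3 and no H3K4me2 in the control lines, and Sema3a had neither mark in any line. For Robo1 and Sema3a the start in the RefSeq table lies 635631 and 271962 bases inside the gene body, so these windows belong to shorter transcripts. For Epha6 it lies 5380 and for Unc5a 4260 bases inside.

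A further 40 genes act with these cues and receptors inside the cell or beside them, such as kinases, GTPase regulators and other guidance cues. Of these, 12 had less H3K4me1 in the mutant lines (7.45% of all genes and 19.2% of those with windows of at least 100 kb did). More H3K4me1 was seen at 2 (5.3 and 4.52%). H3K4me2 was lower at 14 (6.37 and 19.8%) and higher at none (1.36 and 2.39%). H3K27me3 was lower at 6 (6.43 and 11%) and higher at none (0.425 and 0.573%). Fyn, a Src family kinase downstream of netrin and semaphorin receptors, had 87.1, 99.0, 12.4 and 38.7 kb of H3K4me1. Trio, a guanine nucleotide exchange factor, had 99.2, 110, 38.8 and 59.9 kb, and Srgap1, the Slit-Robo GTPase activator, 44.3, 56.2, 7.14 and 15.5 kb. The same 3 genes had the largest H3K4me2 separations, 18.1, 14.5 and 14.2 kb. Enah, an actin regulator, had 43.0 and 141 kb of H3K27me3 in the control lines and none in the mutant lines. Rgma, a repulsive cue, had 36.0, 56.1, 1.54 and 0 kb and Vav3, another exchange factor, 5.48, 13.9, 0 and 0 kb. The partners too have long windows, with a median of 134.9 kb and 25 of 40 of at least 100 kb. Of 11 further family genes outside the 55, with a median window of 43.3 kb, 1 had less H3K4me1, 1 less H3K4me2 and 2 less H3K27me3, against 7.45, 6.37 and 6.43% of all genes.

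Windows of 27 of the 55 genes hold at least 1 other gene body, up to 3, and peaks there may belong to a neighbour. Slit3, Ephb1, Plxna4, Robo1, Ntn4, Nrp2, Epha4 and Epha8 have no other gene in the window, while Ephb2, Unc5a, Unc5b, Ntn1, Plxnc1 and Sema3f have 1 and Sema6b has 2.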

How the data were processed

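Per the submitters' processing notes, Bowtie2 2.4.2 (alignment to mm10) and MACS3 3.0.0a7 (peaks) made the lists. Thresholds, control tracks and duplicate handling were not given in the sources used here. The authors deposited 1 peak list for each of 14 of the 24 samples, and the other 10, inputs, were not used. Each deposited list gives a fold enrichment over the caller's background (1.20 to 35.2), −log10 p and −log10 q (at least 1.01) and a score that is 10 times the −log10 q. Only positions, fold and −log10 q were used here.

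KDM6A libraries had an extra 2 mM DSG crosslink and H3K4me1 had inputs of its own, per the labels' protocols, so targets were not compared by level. Overlapping peaks of a list were merged and the covered length summed over each protein-coding gene body with 10 kb on each side (NCBI gene table, GRCm38.p6). Python 3.11.15, numpy 2.4.6, pandas 2.3.3 and matplotlib 3.10.9 were used, and the counting was tested on simulated data. Precision rests on 2 lines a group; p-values from such lines would measure only the spread between them.

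The members and gene lists were chosen with earlier results of these data known. Genes named with values were, for each mark, the up to 6 members with the largest separation in each direction past 2 kb, in each family those with the highest and lowest mean H3K4me2 share and the highest H3K27me3 share in control lines, and the 5 with the most KDM6A. Dcc, Sema3f, Sema5b, Sema6d, Plxna1 and Plxnd1 were added after their values were seen. Alternatives were stricter peaks, other windows, lists cut to equal covered length by −log10 q, other separations and leaving out each line.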

Additional observations from a re-analysis of the deposited data

How the results depend on the processing

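Percentages in brackets are the share of all genes under the same setting. With peaks of −log10 q of at least 3, H3K4me1 was higher at 3 guidance genes (7.53%), H3K27me3 higher at 0 (0.0457%) and lower at 3 (2.67%), and H3K4me2 with H3K27me3 was seen at 4 in control (1.67%) and 2 in mutant lines (0.548%). With the gene body alone H3K27me3 was higher at 0 (0.206%). Within 2.5 kb of both gene ends, at a separation of 1 kb, H3K4me1 was higher at 5 (7.36%) and lower at 6 (2.72%), H3K4me2 higher at 2 (1.64%) and lower at 0 (1.78%), and H3K27me3 higher at 1 (0.375%). There 2 values reversed, H3K4me1 at Slit3 (0.779 kb) and H3K4me2 at Ephb2 (0.038 kb). In lists of equal covered length H3K4me1 was higher at 3 (7.92%), H3K4me2 higher at 2 (2.01%) and lower at 5 (3.67%), and H3K27me3 lower at 3 (1.45%). At a separation of 1 kb H3K4me1 was higher at 4 (12%) and H3K4me2 higher at 1 (3.44%). At 5 kb H3K4me1 was higher at 0 (0.635%) and lower at 7 (3.66%), H3K4me2 lower at 5 (1.9%) and H3K27me3 higher at 0 (0.114%). A minimum of 2 kb left 5 genes with both H3K4me2 and H3K27me3 in control lines (1.53%). Splits by window length were added after seeing the data. At 100 kb or more H3K4me1 was higher at 0 (4.52%) and lower at 6 (19.2%), H3K4me2 lower at 7 (19.8%) and H3K27me3 higher at 0 (0.573%), and under 100 kb H3K4me1 was lower at 7 (5.48%), H3K4me2 lower at 5 (4.12%) and H3K27me3 lower at 0 (5.67%).

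Leaving out 1 line can only add genes. H3K4me1 was then higher at 3 to 9 and lower at 14 to 30 (8.72 and 15.2%), H3K4me2 higher at 0 to 4 (2.09 and 2.66%) and lower at 15 to 19 (9.65 and 11.5%). H3K4me1 was higher at 3 without either control line (7.86 and 9.03%), at 9 without 236L (10.1%) and at 8 without 236R (29.7%). H3K27me3 was higher at 2 to 13 (0.471 and 4.02%) and lower at 7 to 13 (7.12 and 16.9%). H3K4me2 with H3K27me3 was seen at 14 to 19 genes in control (5.11 and 8.76%) and 12 to 32 in mutant lines (6.02 and 10.7%). The values of 30, 19 (H3K4me2 lower), 13 (H3K27me3 higher) and 32 came without 236R, when 236L stood alone. The count of 37 genes with KDM6A stayed within 1.5 times under every alternative run. The named genes' separations gave 168 values under these alternatives, of which 119 moved by less than the spread between lines, 47 by more and 2 reversed. Leaving out 1 line, which can only keep or widen a gap, gave 60 of the 119 and 24 of the 47. The 119 also hold gaps that fell to 0, such as H3K27me3 at Epha8 and Sema6b in lists of equal length. The cause of these moves was not tested. No paired analysis was possible because the replicate numbers of the control and mutant lines only name lines and the result comes from no model fit. Depth is unknown and limits every statement on an absent peak.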
